A study of Mus musculus with 20 samples.

Results

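The 10 genes described here are the mouse liver genes of fatty acid synthesis, desaturation and elongation: Acly, Acaca and Fasn of the synthesis route, the elongases Elovl5 and Elovl6, the desaturases Scd1, Fads1 and Fads2, and the regulators Srebf1 and Thrsp. They were chosen by symbol for their place in the pathway, with earlier results of these data known, and all 10 were found among the 24972 rows of a table of gene expression in total liver. The table holds 14 RNA sequencing libraries of mice fed for 6 weeks, which per the labels are of WT mice (n = 4 fed control diet and n = 4 fed alcohol diet) and of RageΔMye mice (n = 3 and n = 3). The labels give every mouse as male and give no age, strain, promoter or Cre line. RageΔMye is taken to mean that myeloid cells lack the receptor RAGE, encoded by Ager, so that all other liver cells of those mice would keep the gene. Liver was sampled at what the design text calls the peak of the liver disease.

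Liver cells make fatty acids from citrate. ATP citrate lyase (Acly) splits citrate into acetyl-CoA, acetyl-CoA carboxylase (Acaca) turns acetyl-CoA into malonyl-CoA, and fatty acid synthase (Fasn) joins these units into palmitate. Elovl6 lengthens palmitate to stearate, and Scd1 places a double bond in these saturated chains to give oleate and palmitoleate. Fads1 and Fads2 are the desaturases of polyunsaturated chains and Elovl5 lengthens the same chains. Srebf1 encodes SREBP1, the transcription factor through which insulin induces most of these genes in liver, and Thrsp encodes a small protein that stimulates fatty acid synthesis and responds to thyroid hormone and carbohydrate. Fat accumulation in hepatocytes is an early feature of alcohol-associated liver disease.

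The sequences before the start sites of Fasn, Acly and Elovl5 are shown because Fasn and Acly stand for the synthesis route and Elovl5 for the polyunsaturated route, which differ across libraries in the values below. They come from RefSeq, build GRCm38.p6, whose table held windows for 8 of the 10 genes, named Acaca, Acly, Elovl5, Elovl6, Fads2, Fasn, Srebf1 and Thrsp. The window of Fasn is chr11:120824548-120824797 on the minus strand, that of Acly is chr11:100528001-100528250 on the minus strand, and that of Elovl5 is chr9:77917115-77917363 on the plus strand. All 3 are printed 5′ to 3′ and end at the RefSeq start site (that of Elovl5 leaves out 1 base that GENCODE counts as exon), and capitals mark matches, on either strand, to CCAAT (the box bound by NF-Y), CACGTG (an E-box) and GGGCGG (the GC box bound by Sp factors).
Fasn: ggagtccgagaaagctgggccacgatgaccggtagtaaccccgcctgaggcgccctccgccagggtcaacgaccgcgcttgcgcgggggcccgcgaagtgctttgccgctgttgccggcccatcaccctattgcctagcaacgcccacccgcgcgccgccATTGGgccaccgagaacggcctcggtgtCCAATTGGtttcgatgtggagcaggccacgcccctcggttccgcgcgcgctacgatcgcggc
Acly: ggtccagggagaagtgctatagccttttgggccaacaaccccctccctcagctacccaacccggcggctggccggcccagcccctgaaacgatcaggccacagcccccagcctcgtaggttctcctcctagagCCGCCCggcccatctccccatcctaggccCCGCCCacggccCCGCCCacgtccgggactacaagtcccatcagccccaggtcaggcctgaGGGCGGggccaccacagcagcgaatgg
Elovl5: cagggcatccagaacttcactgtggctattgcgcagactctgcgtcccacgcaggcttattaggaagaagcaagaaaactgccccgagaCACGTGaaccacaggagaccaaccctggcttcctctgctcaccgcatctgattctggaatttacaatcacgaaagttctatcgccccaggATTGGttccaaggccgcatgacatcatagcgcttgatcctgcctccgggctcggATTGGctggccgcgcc
The Fasn window held 3 matches to CCAAT, of which the pair written CCAATTGG overlaps, the Acly window held 4 matches to GGGCGG, and the Elovl5 window held 2 matches to CCAAT and 1 to CACGTG. Among all 10 windows of the 8 genes, 5 held CCAAT, 4 held GGGCGG and 1 held CACGTG. Of 32851 RefSeq windows of 250 bases, 33.8% held CCAAT, 32.7% held GGGCGG and 6.02% held CACGTG. The sterol element TCACNCCAC was in none of the 10 windows and in 1.05% of all windows. A match describes the letters only.

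The libraries differed in ways that bear on every value below. Values are in TPM, a relative level per transcript length, and the number of reads behind them is unknown. WT libraries listed 15113 to 15599 genes above 0, and libraries labelled RageΔMye listed 7596 to 8502. Genes whose exons overlap those of an opposite-strand gene made up 15.4% to 18.3% of the TPM in WT libraries and 55.8% to 61.7% in those labelled RageΔMye. Ager was at 0.0194 to 0.478 TPM in WT libraries. It was at 93.1 to 166 TPM in those labelled RageΔMye, although the label is read as a loss of Ager in myeloid cells. Genotype therefore cannot be told apart from these library differences. Within WT, Xist was at 0.00165 to 0.135 TPM with control diet against 17.8 to 27.3 TPM on alcohol diet, and the sum of 4 Y-linked transcripts was 11.3 to 16.6 TPM and 0 to 0.0161 TPM in the same order, although all mice are labelled male. Diet in WT cannot be told apart from this difference in sex-linked transcripts. In libraries labelled RageΔMye the Y-linked sum was 3.16 to 4.50 TPM on control diet and 0.276 to 1.74 TPM on alcohol diet, while Xist overlapped at 0 to 3.10 TPM and 0.322 to 0.990 TPM in the same order. Diet in these libraries cannot be told apart from the difference in Y-linked transcripts either. The 6 of 7 hepatocyte markers found by symbol (Alb, Ttr and others) summed to between 122667 and 157303 TPM in WT and between 41693 and 61516 TPM in libraries labelled RageΔMye. Alb was the largest part of the WT sums, at 86946 to 128159 TPM in WT and 20896 to 28826 TPM in libraries labelled RageΔMye. Apoa1 was not lower there, at 10289 to 15418 TPM in WT and 13020 to 24123 TPM in libraries labelled RageΔMye. The 7 adipocyte markers summed to 25.5 to 109 TPM in WT on control diet, 23.5 to 49.0 TPM in WT on alcohol diet, and 31.7 to 33.7 TPM and 8.15 to 49.6 TPM on control and alcohol diet in libraries labelled RageΔMye. Cidec, a lipid droplet protein, made up much of these sums, at 8.15 to 69.5 TPM over all libraries, and Cfd was at 10.9 to 70.0 TPM in WT on control diet, at 0 to 2.77 TPM in WT on alcohol diet and listed at 0 in the others. Adipoq, Plin1 and Retn were under 1 TPM in every library, Lep was listed at 0 in all, and Adrb3 reached at most 2.75 TPM. The part of these markers in the results was not tested. The stellate cell markers Dcn, Lrat, Des and Col1a1 summed to 35.2 to 52.1 TPM in WT on control diet and 62.8 to 112 TPM in WT on alcohol diet. Most of this was Dcn, at 33.7 to 50.0 TPM and 60.6 to 107 TPM in the same order. Des was at 0.391 to 0.879 TPM and 0.920 to 1.18 TPM, and Lrat and Col1a1 overlapped between the diets. The part of the stellate cell markers in the results was not tested. In whole liver, fewer cells of a type and less RNA per cell cannot be told apart.

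In WT liver the polyunsaturated desaturases Fads1 and Fads2 rose on alcohol diet by about the same factor, while Acly, Acaca, Fasn, Elovl6, Thrsp, Scd1, Elovl5 and Srebf1 did not pass the test. Each genotype was fitted on its own with limma on log2(TPM + 1), and a gene passed at a Benjamini-Hochberg adjusted p under 0.05 over all genes tested. In WT, 31.2% of the 9747 genes tested passed, 13.3% higher and 17.9% lower on alcohol diet. Of the 10 lipogenic genes, 2 passed, both higher. An unadjusted p under 0.05 was found for 5 of the 10, and for 4193 of the 9747 genes tested. A share of 2 in 10 lies below the 31.2% of all genes that passed in either direction and above the 13.3% that passed as higher, and nothing is read from either with so few genes. The median log2 fold change of the 10 genes was 0.15, against -0.05 over all genes tested.

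**Figure D1:**
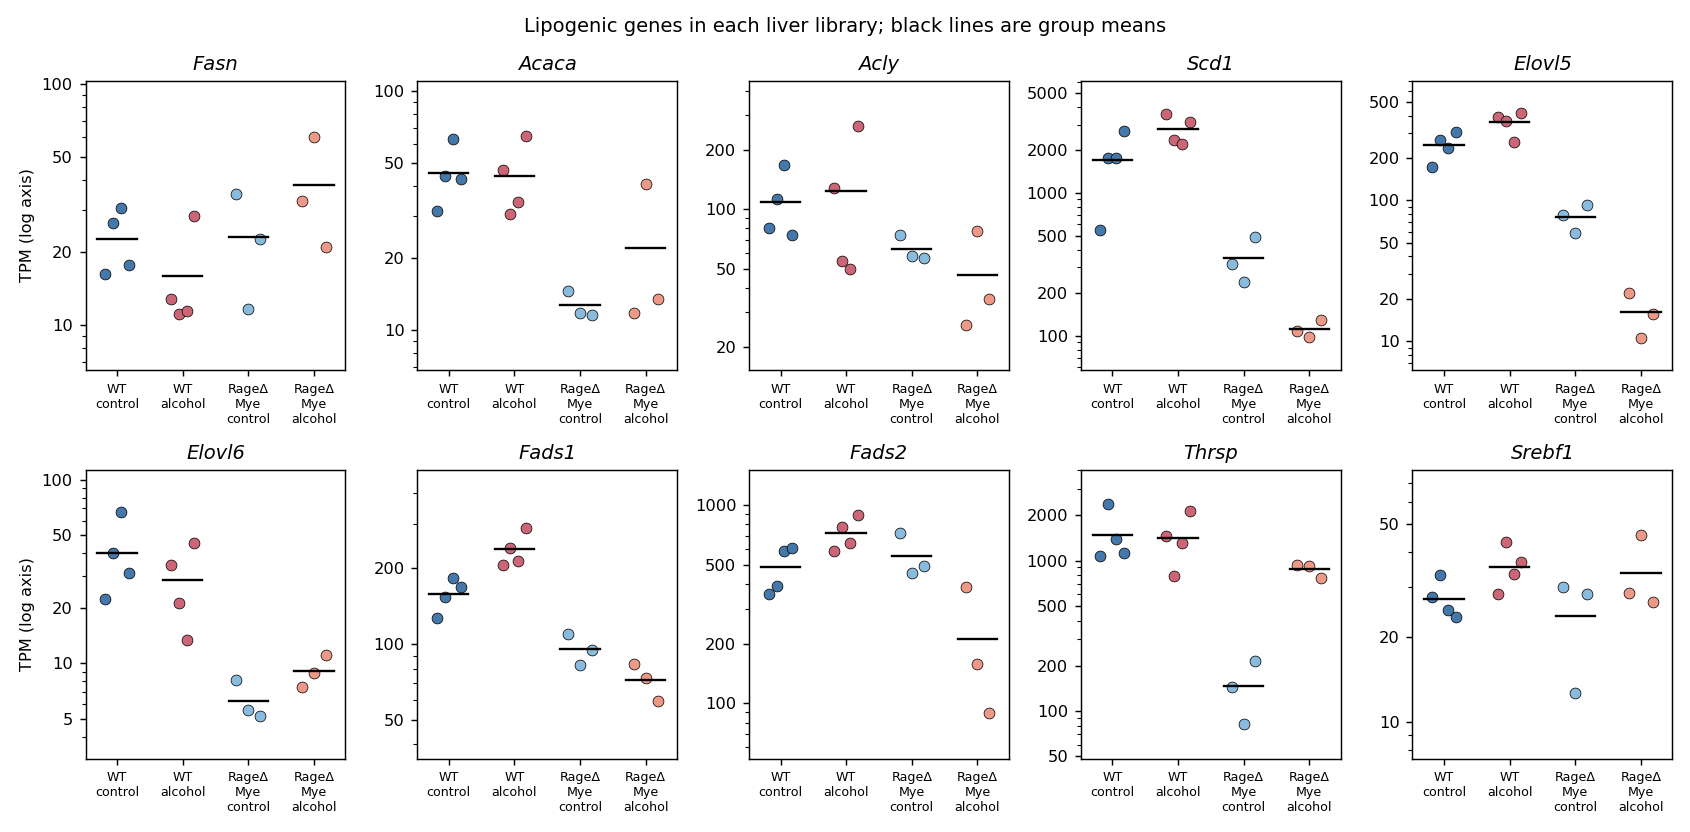
TPM of each of the 10 genes on log axes, with 1 point per library, by diet and labelled genotype, and black lines at group means (n = 4 per WT group and n = 3 per group labelled RageΔMye). In WT, the Fads1 points on alcohol diet (207 to 290.5 TPM) lie above all control points (127 to 184 TPM), while the Acly and Fasn points of the diets overlap.

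Fads1, at chromosome 19, 10182888 to 10196877 on the plus strand of mm10, measured 127, 154, 184 and 169.5 TPM in WT control libraries 36, 37, 38 and 39. In the WT alcohol libraries 28, 29, 30 and 31 it was at 207, 241, 214 and 290.5 TPM. All alcohol libraries were above all control libraries, and Fads1 was the only 1 of the 10 genes for which the diets did not overlap in WT, against 30.8% of all genes tested (12.3% higher and 18.4% lower). Its mean went from 159 ± 24.5 (SD, n = 4) to 238 ± 37.8 TPM (SD, n = 4), a ratio of 1.5 (log2 fold change 0.58, SE 0.15, limma adjusted p = 0.0146). It passed with any 1 of the 8 libraries left out (adjusted p from 0.0144 to 0.0407). Fads2, its neighbour at 10062765 to 10101746 on the minus strand, was at 355, 392, 585 and 608 TPM with control diet against 584, 773, 640.0 and 886 TPM on alcohol diet. The lowest alcohol library lay just below the higher pair of control libraries. Mean levels were 485 ± 130.5 and 721 ± 136 TPM (SD, n = 4 each), a ratio of 1.49 (log2 fold change 0.59, SE 0.20, limma adjusted p = 0.0466). Without control library 36 or 37, or without any 1 of the alcohol libraries 28, 29, 30 and 31, Fads2 no longer passed (adjusted p from 0.0504 to 0.122). Within a library, Fads2 was 2.54 to 3.59 times the Fads1 level in all 8 WT libraries, with no separation of the diets.

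Elovl5 (chromosome 9, 77917364 to 77984519, plus strand), which lengthens the products of these desaturases, was at 174, 269, 235 and 304 TPM with control diet against 390.1, 366, 260.1 and 415 TPM on alcohol diet in WT. Of the 4 alcohol libraries 3 were above all control libraries. The ratio of means was 1.46 (log2 fold change 0.55, SE 0.19, limma adjusted p = 0.0538), just outside the threshold. It passed without control library 39 (adjusted p = 0.0241) or without alcohol library 30 (adjusted p = 0.0227). Scd1 (chromosome 19, 44394455 to 44407879, minus strand) had the highest mean of the 10 genes in both WT groups, at 548, 1749, 1745 and 2706 TPM with control diet against 3560.1, 2349.7, 2191 and 3138 TPM on alcohol diet. Control library 36 was far below the others and control library 39 lay within the alcohol range. The ratio of means was 1.67, with a log2 fold change of 0.92 that had an SE of 0.40 and did not pass (limma adjusted p = 0.109). Without control library 36 the log2 fold change was 0.45 (adjusted p = 0.163), and without control library 39 it was 1.21 and passed (adjusted p = 0.0300).

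The synthesis enzymes did not pass in either direction in WT. Fasn (chromosome 11, 120805846 to 120824547, minus strand) was at 16.2, 26.4, 30.5 and 17.8 TPM with control diet against 12.9, 11.1, 11.4 and 28.4 TPM on alcohol diet. Alcohol libraries 28, 29 and 30 were below every control library and library 31 was above all but 1 of them. The mean was 22.7 ± 6.84 TPM on control diet and 15.9 ± 8.37 TPM on alcohol diet (SD, n = 4 each; log2 fold change -0.55, SE 0.30, limma adjusted p = 0.182). Without alcohol library 31 the log2 fold change was -0.85 and Fasn passed as lower (limma adjusted p = 0.0192). Acly (chromosome 11, 100476353 to 100528000, minus strand) was at 80.5, 113, 168 and 74.0 TPM with control diet against 128, 54.6, 49.7 and 263 TPM on alcohol diet. Its alcohol libraries spanned a 5.30-fold range, with library 31 highest, and enclosed the control libraries. Acaca (chromosome 11, 84129672 to 84401651, plus strand) was at 31.5, 44.1, 63.3 and 42.7 TPM with control diet against 46.6, 30.6, 34.5 and 64.8 TPM on alcohol diet. Log2 fold changes were -0.07 (95% interval -1.13 to 0.98) for Acly and -0.06 (95% interval -0.62 to 0.50) for Acaca, so that a rise of the size seen for Fads1 lies outside the interval of Acaca and inside that of Acly, while a fall of that size lies inside both. Elovl6 (chromosome 3, 129532355 to 129638495, plus strand) was at 22.3, 39.8, 66.9 and 31.2 TPM and at 34.4, 21.3, 13.4 and 45.3 TPM in the same order, which overlap (log2 fold change -0.50, SE 0.38, limma adjusted p = 0.351).

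Of the regulators, Srebf1 (chromosome 11, 60199089 to 60222581, minus strand) was at 27.8, 33.2, 24.9 and 23.5 TPM with control diet against 28.3, 43.2, 33.3 and 36.8 TPM on alcohol diet in WT. The alcohol libraries other than library 28 were above all control libraries (log2 fold change 0.36, 95% interval 0.02 to 0.70, limma adjusted p = 0.102). Thrsp (chromosome 7, 97412938 to 97417730, minus strand) was at 1071, 2362, 1396 and 1121 TPM with control diet against 1454, 789, 1303 and 2123 TPM on alcohol diet. The diets overlapped fully (log2 fold change -0.08, 95% interval -0.77 to 0.61, limma adjusted p = 0.866). Srebf1 shares 109 exonic bases, 1.93% of its exonic length, with Rai1 on the opposite strand, which was at 0.377 to 0.953 TPM in WT. Elovl6 shares 34 bases with the antisense transcript Gm35986, at 6.34, 14.9, 8.68 and 4.80 TPM on control diet and 2.25, 2.29, 1.43 and 2.78 TPM on alcohol diet in WT. In libraries labelled RageΔMye, Rai1 was at 4.13 to 11.3 TPM. Gm35986 was listed at 0 there in all but alcohol library 1, at 17.3 TPM, where Elovl6 was at 7.45 TPM. The part of these overlaps in the values of Srebf1 and Elovl6 was not tested. The other 8 genes have no such exonic overlap in GENCODE vM21.

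**Figure D2:**
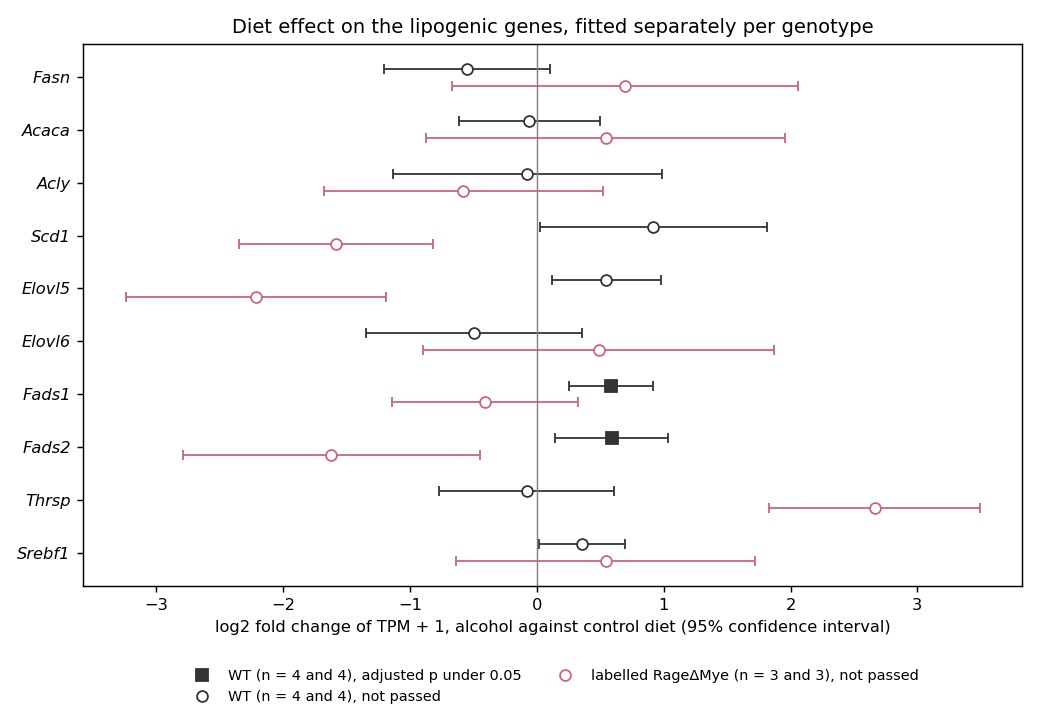
Log2 fold change of TPM + 1 on alcohol against control diet for the 10 genes, with 95% confidence intervals, from a separate limma fit per labelled genotype (WT in black, libraries labelled RageΔMye in red). Filled squares mark Fads1 (0.58) and Fads2 (0.59) in WT, which passed at an adjusted p under 0.05, and no gene passed in libraries labelled RageΔMye.

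Within the WT groups, single libraries were high or low for many of the genes at once. Alcohol library 31 had the highest level in its group of 8 of the 10 genes (Scd1 and Srebf1 were the exceptions), and the 10 genes summed to 7291 TPM there against 4679 to 6445 TPM in alcohol libraries 28, 29 and 30. Control library 36 had the lowest level in its group of 8 of the 10 genes (Acly and Srebf1 were the exceptions), and their sum was 2452 TPM against 4499 to 5182 TPM in the other control libraries. Control library 38 was highest for Fasn, Acaca, Acly, Elovl6 and Fads1. Relative to the median of its group on the log2 scale, library 31 was at 1.64 for Acly, 1.17 for Fasn, 0.72 for Elovl6, 0.68 for Acaca and 0.62 for Thrsp, but at 0.35 or less for Scd1, Elovl5, Fads1, Fads2 and Srebf1. Acly had the widest range on alcohol diet, and Scd1 had the widest on control diet, at 4.94-fold. Srebf1 and Fads1 were the steadiest, with the highest library at most 1.52 times the lowest in either WT group.

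**Figure D3:**
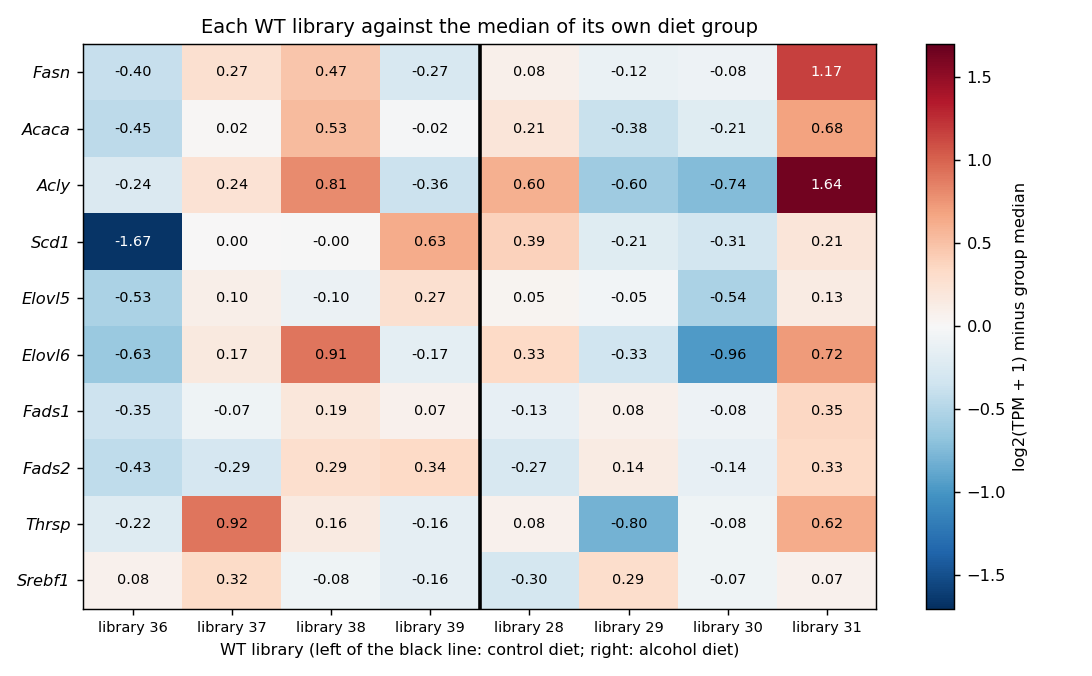
Difference of log2(TPM + 1) in each WT library from the median of its own diet group, for the 10 genes in rows and the 8 libraries in columns, with the control diet left of the black line. Library 31 is above its group median for all 10 genes, most for Acly (1.64) and Fasn (1.17), and library 36 is lowest for Scd1 (-1.67).

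Fasn was followed across the 8 WT libraries most closely, by the root-mean-square difference of centred log2(TPM + 1), by Il15ra (0.17), Ttc23 (0.18), Nsdhl (0.20), Slc2a2 (0.24) and Pklr (0.25) among 3944 genes with a WT mean of at least 10 TPM. The median difference over those genes was 0.53. Nsdhl encodes an enzyme of cholesterol synthesis, Slc2a2 the main glucose transporter of hepatocytes and Pklr the liver pyruvate kinase. In Pklr, as in Fasn, the alcohol libraries 28, 29 and 30 (188, 133 and 106 TPM) were below library 31 (248 TPM), and control libraries 37 and 38 (350.1 and 379 TPM) were above 36 and 39 (174 and 172 TPM). Of the lipogenic genes, Acaca (0.32, with 37 other genes closer), Elovl6 (0.34, with 61 closer) and Thrsp (0.40, with 264 closer) were nearest to Fasn. Acly differed from it by 0.46, with 931 genes closer. Srebf1, Fads1, Elovl5, Fads2 and Scd1 were at 0.65 to 0.97, with at least 3011 genes closer. Scd1 was 33.7 to 152 times the Fasn level in WT control libraries and 110.4 to 277 times in WT alcohol libraries.

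Around the 10 genes, 59 genes of the same pathway were listed in 5 groups, of which 54 were tested in WT, and 4 were higher and 7 lower on alcohol diet. In the group of other elongases, desaturases and elongation cycle enzymes, 1 of 12 tested rose and 3 fell. Elovl3, an elongase of very long chains with a known male bias in mouse liver, was at 110.4, 161, 271 and 77.8 TPM with control diet against 0.832, 1.59, 0.977 and 0.770 TPM on alcohol diet. It was 149-fold lower on alcohol diet (limma log2 fold change -6.12, SE 0.32, adjusted p = 6.1e-07), between the same libraries that differed in Xist and the Y-linked transcripts, and the part of that difference in the result was not tested. Elovl3 and Elovl1 both overlap an opposite-strand gene in their exons. Elovl1 fell to 19.3 ± 2.34 from 29.7 ± 1.89 TPM (adjusted p = 0.00434) and Fads6 to 6.11 ± 1.44 from 12.8 ± 5.41 TPM (adjusted p = 0.0262), each SD with n = 4 and from the same limma fit. Fads6 no longer passed without control library 38 or without alcohol library 28 or 30 (adjusted p up to 0.0770). Hacd3, a dehydratase of the elongation cycle, rose from 98.7, 90.3, 117 and 158 TPM to 203, 224, 188 and 190.3 TPM (limma log2 fold change 0.82, SE 0.17, adjusted p = 0.00504). Its diets did not overlap, as for 30.8% of all genes tested in WT.

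Of the 8 genes that supply citrate, acetyl-CoA and NADPH, 1 passed. This was G6pdx, the first enzyme of the pentose phosphate route and a source of NADPH, which rose from 4.74 ± 0.630 to 7.78 ± 1.53 TPM (limma log2 fold change 0.60, adjusted p = 0.0126). Of 4 malonyl-CoA partners, Mlycd, which breaks down malonyl-CoA, fell from 5.17 ± 0.796 to 3.61 ± 0.635 TPM (limma adjusted p = 0.0444), and no longer passed without any 1 of the libraries 36, 37, 38, 28, 30 and 31 (adjusted p up to 0.119). Among 17 tested regulators and targets of SREBP1, ChREBP and LXR, Abca1, a cholesterol exporter that LXR induces, rose from 23.2 ± 12.1 to 53.4 ± 6.77 TPM (limma log2 fold change 1.29, adjusted p = 0.00718). The other 16 genes of this group did not pass in WT. In the group of acyl-CoA activation and triglyceride synthesis, with 13 tested, 3 fell: the acyl-CoA synthetase Acsl1 from 510.1 ± 125 to 202 ± 32.0 TPM (limma log2 fold change -1.31, adjusted p = 0.000718), Agpat2 from 29.9 ± 3.87 to 18.9 ± 4.60 TPM (adjusted p = 0.0155) and Gpam from 42.9 ± 7.95 to 28.1 ± 8.16 TPM (adjusted p = 0.0485). Gpam no longer passed without any 1 of the libraries 37, 38, 39, 28, 29 and 30 (adjusted p up to 0.127). Agpat2 and Gpam encode acyltransferases of the first steps of glycerolipid synthesis. G6pdx, Acsl1 and Agpat2 overlap opposite-strand genes in their exons. In the same group Pnpla3, a lipid droplet protein and SREBP1 target, was at 0.373, 1.38, 0.333 and 0.442 TPM with control diet against 2.32, 0.996, 2.62 and 10.1 TPM on alcohol diet, with alcohol library 29 below control library 37. It is counted among the 4 genes higher (limma log2 fold change 1.35, adjusted p = 0.0366), but it met the filter of 1 TPM only through its alcohol group (mean 4.01 TPM, against 0.632 TPM with control diet), so the call is no support for a difference. It no longer passed without any 1 of the libraries 36, 38, 39, 28 and 30 (adjusted p up to 0.0898), and its log2 fold change was 0.36 with a pseudocount of 10 TPM and 2.20 with 0.1 TPM. Across the 5 groups, the share that passed, 11 of 54, was below the 31.2% of all genes.

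**Figure D4:**
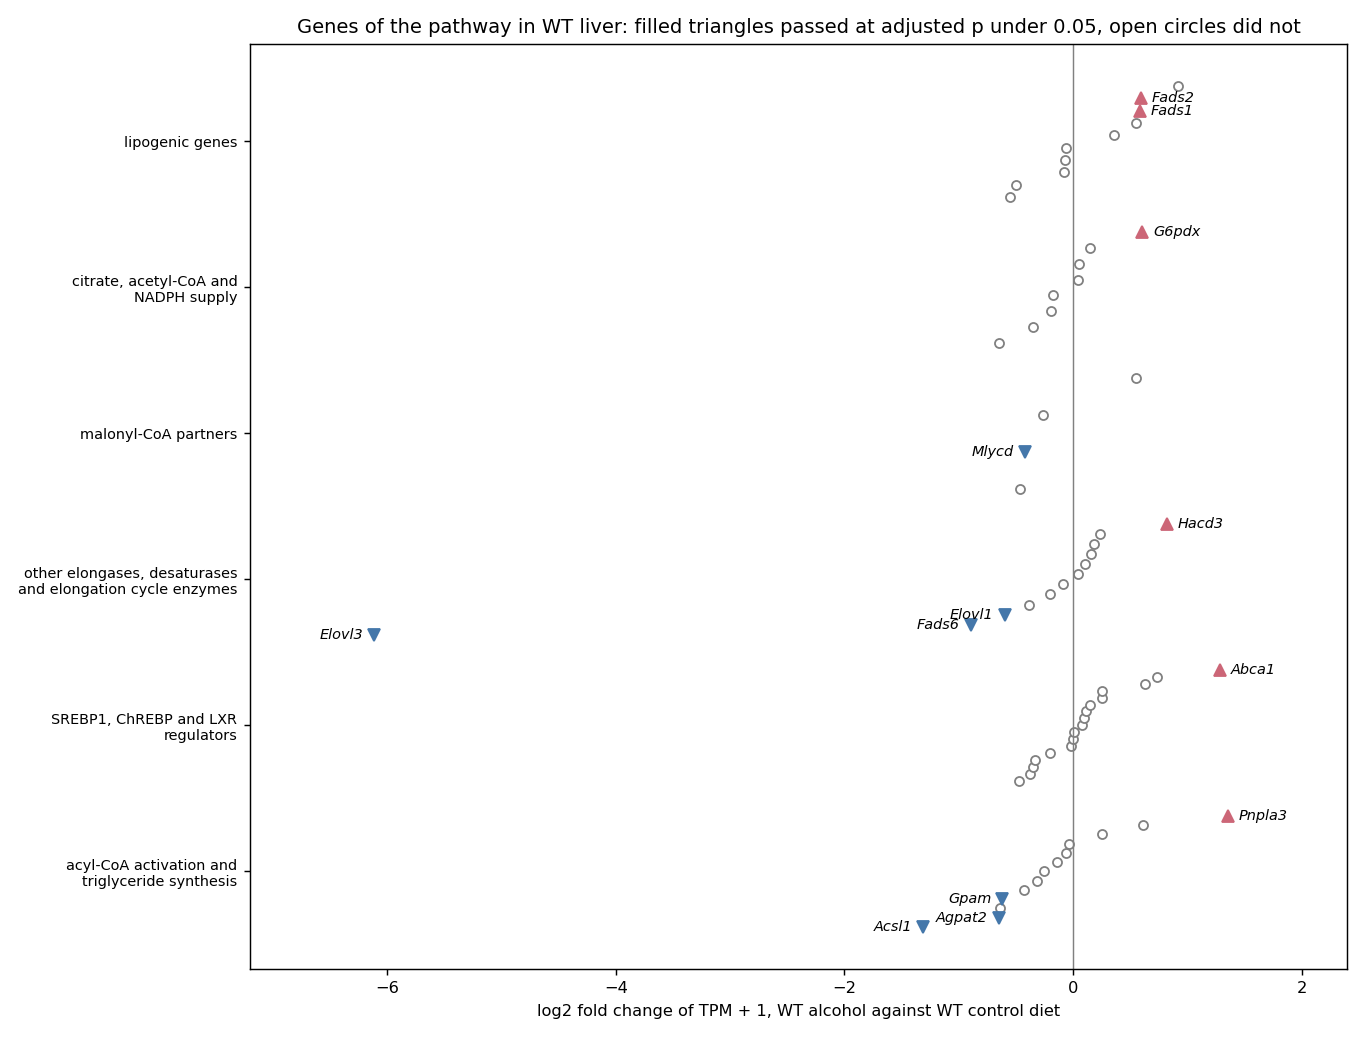
Log2 fold change of TPM + 1 in WT liver, alcohol against control diet (n = 4 each), for the genes tested in 6 lists, with upward triangles for genes that passed as higher, downward triangles for those that passed as lower, and open circles for the rest. Elovl3 lies far to the left at -6.12, and the genes that passed otherwise lie between -1.31 (Acsl1) and 1.35 (Pnpla3).

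In libraries labelled RageΔMye, none of the 10 genes passed, although Thrsp was several-fold higher on alcohol diet and Elovl5, Scd1 and Fads2 were several-fold lower. Only 0.0374% of the 10689 genes tested passed in this limma fit, 0.0187% higher and 0.0187% lower, and 747 had an unadjusted p under 0.05, among them 4 of the 10. On simulated data with 200 changed genes, all at higher levels, the fit of these 6 libraries recovered 0% of 2-fold, 31.3% of 4-fold and 62.1% of 8-fold changes. The WT fit recovered 88.1%, 100% and 100% of the same sizes. A gene that did not pass here may therefore still differ. For lower genes, such as Elovl6 in these libraries, recovery was not simulated. Replicates spread more widely in these groups, with a median SD of log2 values over genes of 0.919 and 0.889, than in the WT groups, with 0.218 and 0.161. Of the 10 genes, 1 was higher and 3 were lower with no overlap between diets, against 5.83% of all genes higher and 5.85% lower.

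Thrsp was at 145, 82.2 and 216 TPM in control libraries 1, 2 and 3 labelled RageΔMye and at 936, 919.7 and 772 TPM in alcohol libraries 1, 2 and 3. All alcohol libraries were above all control libraries, at 5.94 times the mean (log2 fold change 2.66, SE 0.36, limma adjusted p = 0.0630). These values were whole multiples, within 0.01, of the most frequent value above 0 in each library: 8, 4 and 15 on control diet and 54, 61 and 53 on alcohol diet. The most frequent value was 14.4 to 20.5 TPM in these libraries and 0.0576 to 0.0835 TPM in WT libraries. On alcohol diet the Thrsp mean, 876 ± 90.5 TPM (SD, n = 3), was within the range of the WT libraries, and on control diet, 148 ± 66.8 TPM (SD, n = 3), it was below all of them.

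Elovl5 was at 78.3, 58.7 and 92.3 TPM with control diet against 21.9, 10.6 and 15.6 TPM on alcohol diet in the libraries labelled RageΔMye. The lowest control library was above the highest alcohol library (log2 fold change -2.21, SE 0.44, limma adjusted p = 0.176). In alcohol libraries 1, 2 and 3 the most frequent value above 0 was 17.3, 15.1 and 14.6 TPM. The Elovl5 levels there lie near it, and the number of reads behind them is unknown. Scd1 was at 319, 239 and 489.8 TPM with control diet against 108, 97.8 and 129.7 TPM on alcohol diet, again with no overlap (log2 fold change -1.58, SE 0.33, limma adjusted p = 0.190). Fads2 was at 719.9, 452 and 493 TPM and at 384, 158 and 89.4 TPM in the same order (log2 fold change -1.62, SE 0.51, limma adjusted p = 0.534). In a joint fit of all 14 libraries with 1 shared spread, which is narrower than that of these libraries, 3 of the 10 genes passed in this comparison, Thrsp as higher and Elovl5 and Fads2 as lower. The share of all genes that passed in the joint fit is not given here, so these calls are no support for a difference.

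The remaining 6 genes overlapped between diets in the libraries labelled RageΔMye. Fads1 was at 109, 82.9 and 95.1 TPM on control diet and 83.7, 73.2 and 59.6 TPM on alcohol diet. Fasn was at 34.8, 11.7 and 22.8 TPM and at 32.7, 60.5 and 21.1 TPM in the same order. Alcohol library 2 was the highest of its group for Fasn, Acaca, Acly and Srebf1. For Acaca, it was at 41.0 TPM against 11.8 and 13.5 TPM in alcohol libraries 1 and 3 and 11.6 to 14.6 TPM in the control libraries. For Acly, it was at 78.0 TPM against 26.0 and 35.1 TPM, with control libraries at 74.1, 58.1 and 56.8 TPM. Elovl6 was at 8.10, 5.57 and 5.15 TPM and then at 7.45, 8.85 and 11.2 TPM, and Srebf1 at 30.0, 12.7 and 28.3 TPM and then at 28.6, 45.8 and 26.6 TPM. All Elovl6 levels, and all Acaca levels but that of alcohol library 2, were below the most frequent value above 0 of their library (14.4 to 20.5 TPM). In control library 2, where that value was 20.5 TPM, Fasn (11.7 TPM) and Srebf1 (12.7 TPM) were below it too. Log2 fold changes of these 6 genes ran from -0.58 to 0.69 with SE from 0.32 to 0.61.

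Of the 59 pathway genes, 50 were tested in the libraries labelled RageΔMye and none passed in limma. An unadjusted p under 0.05 was found for 10 of these 50, against 747 of all 10689 genes tested. The gene with the smallest p in each group is given as a value. Fads3, a further member of the Fads cluster, lies at 10041569 to 10060110 on the plus strand of chromosome 19 and ends 2654 bases from Fads2. It was at 1679, 1252 and 1124 TPM with control diet against 142, 124 and 40.8 TPM on alcohol diet (log2 fold change -3.88, SE 0.47, limma adjusted p = 0.0603). In WT libraries Fads3 was at 0.234 to 0.658 TPM. Fads3 has no exonic overlap with an opposite-strand gene. Pklr was at 79.4, 37.4 and 42.1 TPM and at 162, 136 and 129.7 TPM (log2 fold change 1.48), and Mid1ip1, a protein related to Thrsp that activates acetyl-CoA carboxylase, was at 39.2, 27.3 and 15.4 TPM and at 59.0, 86.2 and 58.5 TPM (log2 fold change 1.35). Insig2, which holds SREBP precursors in the endoplasmic reticulum, was at 16.2, 22.9 and 35.6 TPM on control diet, and on alcohol diet at 11.2 TPM in library 1 and listed at 0 in the others. Its levels in control library 1 and alcohol library 1 were below the most frequent value above 0 there (18.1 and 17.3 TPM). Acsl5 was at 63.8, 84.0 and 100.4 TPM and at 25.2, 48.3 and 21.2 TPM. Pklr, Mid1ip1 and Acsl5 overlap opposite-strand genes in their exons. Kupffer cell and macrophage markers (Clec4f, Vsig4, Cd5l, Adgre1 and Cd68) summed to between 140 and 287 TPM on control diet and between 45.9 and 100.3 TPM on alcohol diet in these libraries. Clec4f was at 47.6 to 124 TPM on control diet and 8.32 to 41.1 TPM on alcohol diet, and Cd5l at 70.9 to 103 TPM and 0 to 61.0 TPM. Vsig4 was at 0 to 26.9 TPM on control diet and listed at 0 in all 3 alcohol libraries. Adgre1 and Cd68 overlapped between the diets. The part of these markers in the results was not tested.

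Whether the diet effect differed between the labelled genotypes was tested directly. With all 14 libraries in 1 limma fit and a weight per genotype, 0.505% of 12069 genes passed and none of the 10 did. Of the 10, 1 (Elovl5) had an unadjusted p under 0.05 in that fit, as did 1026 of all genes tested. That fit gives a gene 1 spread for both genotypes up to a common factor, so the difference was computed again from the separate fits, each with its own spread, a choice made after seeing the data. There 0.932% of 8367 genes passed (0.538% higher and 0.394% lower), and so did 3 of the 10. On simulated data both tests of the difference called genes with none more often than the threshold of 0.05 states, the weighted fit most, so their adjusted p are too small and the values that follow are given as sizes, not as established differences. Thrsp differed by 2.74 (log2, RageΔMye minus WT; SE 0.47, limma adjusted p = 0.0119), Elovl5 by -2.76 (SE 0.48, adjusted p = 0.0280) and Scd1 by -2.50 (SE 0.52, adjusted p = 0.0280). For Fads2 the difference was -2.21 (95% interval -3.42 to -1.01, limma adjusted p = 0.118) and for Fads1 -0.99 (95% interval -1.76 to -0.22, adjusted p = 0.313). Intervals of the other 5 genes spanned 0, and that of Acaca ran from -0.86 to 2.06. Each of these differences is between library series that also differ in Ager, in opposite-strand signal and in the number of genes listed, and these cannot be told apart from the genotype. The diet effects compared also hold the differences in sex-linked transcripts between the diets given above, which cannot be told apart from diet.

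The order of the 10 levels per transcript length also differed between the series. On control diet in WT, Scd1 (1687 ± 884 TPM) and Thrsp (1487 ± 600.2 TPM) came first with overlapping ranges, followed by Fads2, Elovl5, Fads1 and Acly, then Acaca, Elovl6, Srebf1 and Fasn, whose neighbours overlapped. On alcohol diet in WT the first 6 places were the same, and Scd1 (2809.7 ± 649.6 TPM, SD, n = 4) was above Thrsp with no overlap. In control libraries labelled RageΔMye, Fads2 came first at 555 ± 144 TPM, overlapping Scd1 at 349 ± 128 TPM, and Elovl6 was last at 6.28 ± 1.60 TPM (SD, n = 3). On alcohol diet in the same series Thrsp was first with no overlap with Fads2 (210.4 ± 154 TPM), and Elovl5 (16.1 ± 5.69 TPM) was second to last, beside Elovl6 (9.16 ± 1.88 TPM). Elovl5 was 9.66 to 17.9 times Elovl6 in the control libraries labelled RageΔMye and 1.20 to 2.95 times in the alcohol libraries, whereas in WT it was 3.52 to 9.76 times on control diet and 9.15 to 19.4 times on alcohol diet. In the libraries labelled RageΔMye, Elovl6 was below the most frequent value above 0 (14.4 to 20.5 TPM), and Elovl5 was near it on alcohol diet. The 10 genes summed to between 2452 and 7291 TPM in WT libraries and between 1015 and 1640.0 TPM in libraries labelled RageΔMye.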

How the data were processed

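The authors deposited 1 liver table with a value per gene and library and no unit in its header. All columns had the same sum, as TPM do, so the values were taken to be TPM, computed by the authors before the table was deposited. The labels' protocols name a stranded mRNA library kit, and the submitters' processing notes name the genome build mm10. The aligner, counting tool and strand setting were not given in the sources used. The macrophage cell line table of the series was left aside. The labels do not say that libraries came from separate mice, so p-values measure the spread between these libraries, which may be technical.

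A gene was tested if the mean of a group reached 1 TPM, and values were compared as log2(TPM + 1) with limma 3.58.1 (trend) in R 4.3.3, after a check on simulated data. There, with 200 changed genes at higher levels, the fit of WT libraries held its threshold, with 4.48% of calls false. That of libraries labelled RageΔMye held it too (1.59% false) but missed most changes of 2-fold and 4-fold. Both tests of the difference between genotypes called too many unchanged genes, with 50.6% of calls false in the weighted fit and 18.4% from the separate fits. The log2(TPM + 1) scale understates the fold change of low genes. The genes and lists were chosen with earlier results of these data known. All 10 genes passed the filter in both genotypes. Besides these, up to 12 pathway genes that passed, with the smallest adjusted p, are named per comparison, or the 1 with the smallest p in a list where none passed, and the 5 genes most like Fasn. Adjustment was by Benjamini-Hochberg over the genes tested. The alternatives and their effect are given at the end. Overlaps were taken from GENCODE vM21, which matched 24467 of 24970 symbols.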

Additional observations from a re-analysis of the deposited data

Results flagged for a closer look

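In the WT alcohol group, the Fasn level of library 31 (28.4 TPM) stood apart from the others (11.1, 11.4 and 12.9 TPM), with a gap to the nearest of 0.897 of the whole range. In the WT control group, the Pnpla3 level of library 37 (1.38 TPM) stood apart from 0.333, 0.373 and 0.442 TPM, with a gap of 0.896 of the range. These were 2 of 42 groups of 4 examined by Dixon's 95% criterion, and chance flags about 1 in 20.

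A test of the difference of the diet effect between the labelled genotypes passed for Fads3 (-4.04 on the log2 scale, limma adjusted p = 0.0181, weighted fit of 14 libraries) and, from the separate fits, for Thrsp (2.74, adjusted p = 0.0119), Elovl5 (-2.76, adjusted p = 0.0280) and Scd1 (-2.50, adjusted p = 0.0280). Both tests called too many unchanged genes on simulated data, so these p are too small. Fads3 was under 1 TPM in every WT library and met the filter only through the libraries labelled RageΔMye, so its call is no support for a difference.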

How the results depend on the processing

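Of the 10 lipogenic genes, 2 passed in WT. The count was 1 with a pseudocount of 10 TPM or with no filter on low values, 0 at an adjusted p under 0.01 and 0 in the joint fit of 14 libraries, and 1 to 4 with 1 library left out (1 without library 36, 37, 28 or 29, and 4 without library 39). Fads2 did not pass under quantile normalization either. Elovl5 passed under median-ratio rescaling, quantile normalization and the weighted joint fit. Of the other pathway genes 11 passed in WT, against 5 at an adjusted p under 0.01, 2 in the joint fit and 7 to 14 with 1 library left out (7 without library 38 or 30). It was 5 without genes that overlap on the opposite strand, where fewer genes were tested. Elovl3 passed under every alternative run in WT. In libraries labelled RageΔMye none of the 10 passed and 3 did in the joint fit, and of the pathway genes none passed, 1 did with a pseudocount of 10 TPM, a filter at 5 TPM or quantile normalization, 8 in the joint fit, and 0 to 1 with 1 library left out (1 without alcohol library 3). The shared spread of the joint fit is narrower than that of these libraries, so its counts are no support for a difference. For the difference between genotypes, none of the 10 passed in the weighted fit, and 3 did without library weights and from the separate fits, a choice made after seeing the data. Apart from the settings named, the cause of these changes was not tested.

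The sign turned for genes that did not pass. The log2 fold change in WT of Thrsp was 0.016 under quantile normalization and ran from -0.30 (without library 31) to 0.17 (without library 37 or 29) with 1 library left out. That of Acaca ran from -0.26 without library 31 to 0.11, 0.09 and 0.04 without libraries 38, 29 and 30, and that of Acly from -0.55 without library 31 to 0.16, 0.20 and 0.25 without libraries 38, 29 and 30. In libraries labelled RageΔMye, Acaca ran from -0.00049 without alcohol library 2 to 0.86 without alcohol library 1. The difference for Srebf1 ran from -0.19 without control library 2, and -0.05 without alcohol library 2, to 0.40 without control library 1. The cause was not tested.

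No label says whether the sample numbers 1 to 3 shared by the diets labelled RageΔMye pair them. Deviations of same-numbered libraries correlated at 0.018, -0.016 and -0.0002. Replicates of these groups spread widely, so such values cannot exclude a pairing. With the number as a replicate block, 0 of the 10 genes and 0 of the pathway genes passed. The WT diets share no sample number, so no block was possible there. Tests on counts were not run, since the values were taken to be TPM and whole reads were not recovered from them. The number of reads is unknown, so no interval for counting error is given.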

Other observations

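Hacd3, the elongation cycle dehydratase, was singled out after its values were seen. Its alcohol libraries were all above the control libraries in WT (ratio of means 1.73) and all below them in the libraries labelled RageΔMye, at 58.5, 38.1 and 42.9 TPM on control diet and 27.3, 26.8 and 19.4 TPM on alcohol diet (ratio 0.526). Of all genes tested, 12.3% were higher with no overlap in WT and 5.85% lower with no overlap in libraries labelled RageΔMye. The difference between the labelled genotypes, -1.71 on the log2 scale, did not pass in the weighted limma fit (adjusted p = 0.690) or from the separate fits (adjusted p = 0.140).

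Elovl2, an elongase of polyunsaturated chains that acts after Elovl5, was also singled out after its values were seen. In the libraries labelled RageΔMye it was at 95.7, 57.8 and 38.5 TPM with control diet against 23.3, 16.6 and 16.0 TPM on alcohol diet, with no overlap and without passing (limma log2 fold change -1.65, adjusted p = 0.444). Of all genes tested there, 5.85% were lower with no overlap. In WT, Elovl2 was at 130.1 ± 25.8 TPM on control diet and 147 ± 21.8 TPM on alcohol diet (SD, n = 4 each; limma log2 fold change 0.18, adjusted p = 0.411). Insig1, the SREBP retention protein beside Insig2, ranged from 43.1 to 68.3 TPM among WT control libraries and measured 49.7, 54.5, 43.4 and 19.2 TPM in WT alcohol libraries 28, 29, 30 and 31, so that library 31, which was highest for 8 of the 10 lipogenic genes, was lowest for Insig1. Acss2, which makes acetyl-CoA from acetate, was at 116, 62.2, 64.3 and 163 TPM in the same 4 libraries, against 49.9, 131, 108 and 70.2 TPM in WT control libraries 36, 37, 38 and 39. Both were chosen after their values were seen, and Acss2 overlaps an opposite-strand gene in its exons.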
